A study of Mus musculus with 24 samples.

Results

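The messages on ribosomes of CaMKIIα-Cre cells of the mouse hippocampus were compared 1 h after fear conditioning and in naive mice, in control animals without the eIF2α knock-in. The comparison uses 6 of the 24 libraries of the study. They are the 3 immunoprecipitates (IPs) of control mice taken 1 h after conditioning and the 3 IPs of naive control mice. Genes entered it when they reached 1 CPM (read counts scaled by the total of their library) in at least 3 of the 6 libraries, which 12754 of 51733 genes did. The CPM of single genes given below was further scaled between libraries (TMM), apart for IPs and inputs.

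All 6 mice were males of 2 to 3 months on the C57BL/6 background. They are labelled Standard CaMKIIα-Cre+, with Control as the genetic modification, and so carry the Cre transgene that the knock-in mice also carry. The labels do not say how the tagged ribosome was brought in. The groups are labelled Naive and 1hr post-FC. Fear conditioning links a tone, and the place where it sounds, to a shock to the feet. The protocols describe a weak form with a single pairing and a strong form with stronger, repeated shocks, and the labels do not say which one these mice received. In RiboTag mice Cre makes cells build a tagged form of Rpl22, a protein of the large ribosomal subunit, so that an antibody to the tag (HA) pulls down ribosomes with the messages bound to them. The CaMKIIα promoter is active mainly in excitatory neurons of the forebrain, so the IPs draw on granule cells and pyramidal cells together. Both hippocampi of a mouse were pooled, and 1 mouse gave 1 IP and 1 input of the whole lysate. The other libraries used here are the 6 inputs of the same mice and the 6 IPs of conditional knock-in (cKI) mice, naive or 1 h after conditioning. In cKI mice the phosphorylated serine of eIF2α is replaced in Cre-positive cells.

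Neurons that fire strongly switch on immediate-early genes within minutes, through calcium and kinase signals that act on transcription factors already present, among them CREB and SRF. The first genes on encode transcription factors of the Fos, Jun, Egr and Nr4a families and effectors such as Arc, which acts on receptors at the synapse. In the hippocampus these genes are widely used as markers of cells engaged by new experience. An IP of tagged ribosomes shows how much of a message is bound to ribosomes of the tagged cells, which depends on both the amount of message and its loading, and in a pooled tissue fewer cells of a type and less RNA per cell cannot be told apart.

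The 6 libraries held 30.6 to 43.5 M counts and came from 1 sequencing lane. Their median absolute log2 deviation from the mean of their own group was 0.044 to 0.065. The fold change of the median gene was 0.004 on the log2 scale. The excitatory marker list summed to 12800 to 13600 CPM in the 6 IPs and to 7340 to 8250 CPM in the inputs, and the microglial list to at most 33.7 CPM at 1 h in IPs against 574 to 685 CPM in the inputs. Rpl22 itself was at 654, 600 and 596 CPM in the naive IPs and 866, 672 and 715 CPM at 1 h, against 173 to 220 CPM in the inputs of these mice. Its 1 h values lay above the naive ones, with a log2 fold change at 1 h of 0.28 (SE 0.15, edgeR adjusted p 0.6).

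Of the 12754 genes, edgeR called 41 (0.321%) at an adjusted p under 0.05. In the 3 libraries from 1 h after conditioning 21 (0.165%) were higher and 20 (0.157%) lower. In all 41 the 3 conditioned libraries lay apart from the 3 naive ones, as they did in 1303 genes with higher values at 1 h (10.2% of those tested) and 1290 with lower values (10.1%), 20.3% in all. An unadjusted p under 0.05 was reached by 653 genes with higher values (5.12%) and by 5.52% of the tested genes with lower values. Of the genes that rose, 5 are on the early-response and signalling lists (Fosb, Egr2, Egr4, Plk3 and Errfi1), and the others include enzymes and genes of other kinds. Of the activity-regulated lists used here, the genes that fell held 1 member, the neuropeptide gene Adcyap1.

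**Figure D1:**
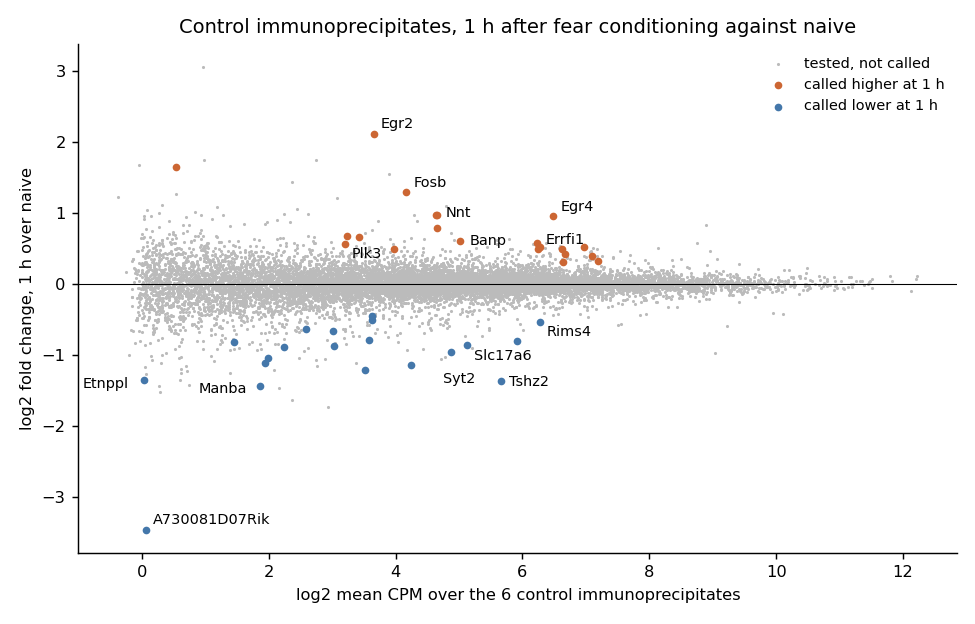
Each of the 12754 tested genes is a point, placed by its log2 mean CPM over the 6 control IPs (x axis) and its fitted log2 fold change at 1 h over naive (y axis). The 21 genes called higher are orange and the 20 called lower are blue, and selected genes are named. Calls run from 0.31 (Rbm5) to 2.11 (Egr2) and from -0.44 (Gm45606) to -3.45 (A730081D07Rik).

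The promoters of 5 early-response genes that rose are shown because the results turn on these genes and because the motifs of CREB and SRF can be read in them. Each line is the 250 bases before a RefSeq transcript start, 5′ to 3′ on the strand of the gene (build GRCm38.p6). Capitals mark the cyclic AMP response element (CRE) TGACGTCA, its core TGACG on either strand (so also CGTCA), and the CArG box that SRF binds. Fosb lies at chr7:19310046-19310295 on the minus strand, Egr2 at chr10:67537619-67537868 on the plus strand, Egr4 at chr6:85513590-85513839 on the minus strand, Errfi1 at chr4:150854820-150855069 on the plus strand and Plk3 at chr4:117133964-117134213 on the minus strand. Egr2 has 5 such windows in the table and Errfi1 2, of which 1 each is printed, chosen because it holds motifs. Of their other windows, 1 of each gene holds none of the motifs searched.
Fosb: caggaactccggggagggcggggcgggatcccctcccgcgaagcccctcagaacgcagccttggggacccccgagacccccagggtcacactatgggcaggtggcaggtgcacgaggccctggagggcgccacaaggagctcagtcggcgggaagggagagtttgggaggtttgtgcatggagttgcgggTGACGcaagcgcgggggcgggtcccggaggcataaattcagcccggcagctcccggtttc
Egr2: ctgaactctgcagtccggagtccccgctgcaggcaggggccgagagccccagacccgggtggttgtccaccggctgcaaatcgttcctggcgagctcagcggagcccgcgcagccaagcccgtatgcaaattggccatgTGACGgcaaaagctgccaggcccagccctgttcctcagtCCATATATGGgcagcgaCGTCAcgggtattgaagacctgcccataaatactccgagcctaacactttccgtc
Egr4: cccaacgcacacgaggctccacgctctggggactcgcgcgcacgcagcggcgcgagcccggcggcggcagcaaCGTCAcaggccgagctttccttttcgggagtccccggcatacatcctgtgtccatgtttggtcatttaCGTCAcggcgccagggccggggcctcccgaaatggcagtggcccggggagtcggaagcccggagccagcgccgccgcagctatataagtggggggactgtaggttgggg
Errfi1: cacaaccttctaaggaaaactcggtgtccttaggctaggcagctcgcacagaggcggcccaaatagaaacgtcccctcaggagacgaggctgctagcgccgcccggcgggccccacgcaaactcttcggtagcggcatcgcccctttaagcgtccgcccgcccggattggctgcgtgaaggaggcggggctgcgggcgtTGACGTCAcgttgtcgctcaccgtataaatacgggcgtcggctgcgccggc
Plk3: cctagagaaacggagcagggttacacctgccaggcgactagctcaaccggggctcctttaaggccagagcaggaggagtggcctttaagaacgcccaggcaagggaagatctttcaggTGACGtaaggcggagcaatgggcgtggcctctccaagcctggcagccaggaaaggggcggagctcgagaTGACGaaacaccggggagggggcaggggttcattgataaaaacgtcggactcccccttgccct

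The Errfi1 window holds a whole CRE, the Egr2 window a CArG box between 2 CRE cores, and those of Egr4 and Plk3 2 CRE cores each. Fosb has 1 CRE core. Windows were found for 17 of the 21 genes called higher, and a CRE core stood in at least 1 window of 9 of them (52.9%), against 31.3% of the 9610 tested genes with a window. For the 20 genes called lower it stood in 6 of 15 (40.0%). Of the Egr and Nr4a list 6 of 7 genes with a window held one (85.7%). The shares were lower in the lists of AP-1 Fos and Jun genes (50.0%), ERK pathway inhibitors (45.5%), other early transcription regulators (61.1%) and synaptic effectors (62.5%). The AP-1 motif, TGAGTCA or TGACTCA, was in 0 of the 17 genes called higher and in 3.59% of tested genes. A whole CRE contains the core on both strands, and a match describes the letters of the window and is no evidence that a factor bound there.

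Fosb, which encodes a partner of Jun in the AP-1 transcription factor, rose. It stood at 9.26, 9.64 and 12.3 CPM in the naive IPs and at 20.8, 31.0 and 24.6 CPM in those from 1 h. Every conditioned mouse lay above every naive one, and the log2 fold change was 1.29 (SE 0.15, edgeR adjusted p 0.00259). Fosb was 1 of 7 genes whose call held whichever of the 6 libraries was left out. In cKI mice it went from 7.13, 6.17 and 7.36 to 16.5, 16.7 and 18.6 CPM, at a log2 fold change of 1.33 (edgeR adjusted p 0.00602). The control and cKI changes differed by -0.04 (edgeR adjusted p 0.976 for the difference).

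Egr2 and Egr4, zinc finger transcription factors of the same family, rose as well. Egr2 stood at 4.13, 4.01 and 6.08 CPM in naive and 15.4, 30.3 and 15.6 CPM in conditioned mice, the largest fitted rise among called genes (log2 2.11, SE 0.35, edgeR adjusted p 0.046). Egr4, with more counts, went from 60.7, 54.9 and 67.2 to 96.1, 141 and 117 CPM (log2 0.95, SE 0.17, edgeR adjusted p 0.046). Neither gene had overlapping groups, and replicate 2 at 1 h was the highest library for both. Their calls were kept only without replicate 1 at 1 h: leaving out any other of the 6 libraries gave edgeR adjusted p of 0.0729 to 0.252 for Egr2 and 0.0906 to 0.246 for Egr4. The calls of Egr2 and Egr4 also ended with the 6 control IPs fitted alone (edgeR adjusted p 0.0844 and 0.0693), with no filter on low counts (0.0945 and 0.0955) and with the replicate number as a block (0.16 and 0.147), at nearly the same fold changes. In cKI IPs the log2 fold changes were 2.05 for Egr2 and 0.93 for Egr4 (edgeR adjusted p 0.143 and 0.135).

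Egr1, the family member most used as a memory marker, did not pass the test. It stood at 311, 316 and 395 CPM in naive IPs and at 541, 725 and 556 CPM at 1 h. The groups did not overlap, with a log2 fold change at 1 h of 0.83 (SE 0.17, edgeR adjusted p 0.0705). Egr3 was at 0.29 (edgeR adjusted p 0.316). Of the nuclear receptors of the Nr4a family, Nr4a1 was at 0.49, Nr4a2 at 0.15 and Nr4a3 at 0.47 (edgeR adjusted p 0.499, 0.869 and 0.285). Over the 9 Egr and Nr4a genes with their corepressors Nab1 and Nab2, 2 rose and 0 fell, and the median was 0.47 against 0.004 for all tested genes. Of the 9, 5 had conditioned libraries above all naive ones and 0 below them, against 10.2% and 10.1% of tested genes.

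Fos and Arc, the genes most often stained in activity mapping, were spread widely among the conditioned mice. Fos stood at 15.6, 10.1 and 17.0 CPM in naive IPs and 18.3, 37.7 and 22.9 CPM at 1 h. Arc stood at 358, 300 and 376 CPM and then 363, 738 and 440 CPM. Replicate 2 at 1 h carried the highest value of both, and replicate 1 lay just above the naive mice for Fos and within the naive range for Arc. The log2 fold changes were 0.89 for Fos (SE 0.28, edgeR adjusted p 0.24) and 0.58 for Arc (SE 0.26, edgeR adjusted p 0.473). Npas4, an early factor of neurons alone, was at 8.72, 5.56 and 11.8 CPM and then 9.18, 20.6 and 13 CPM (log2 0.72, edgeR adjusted p 0.404).

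**Figure D2:**
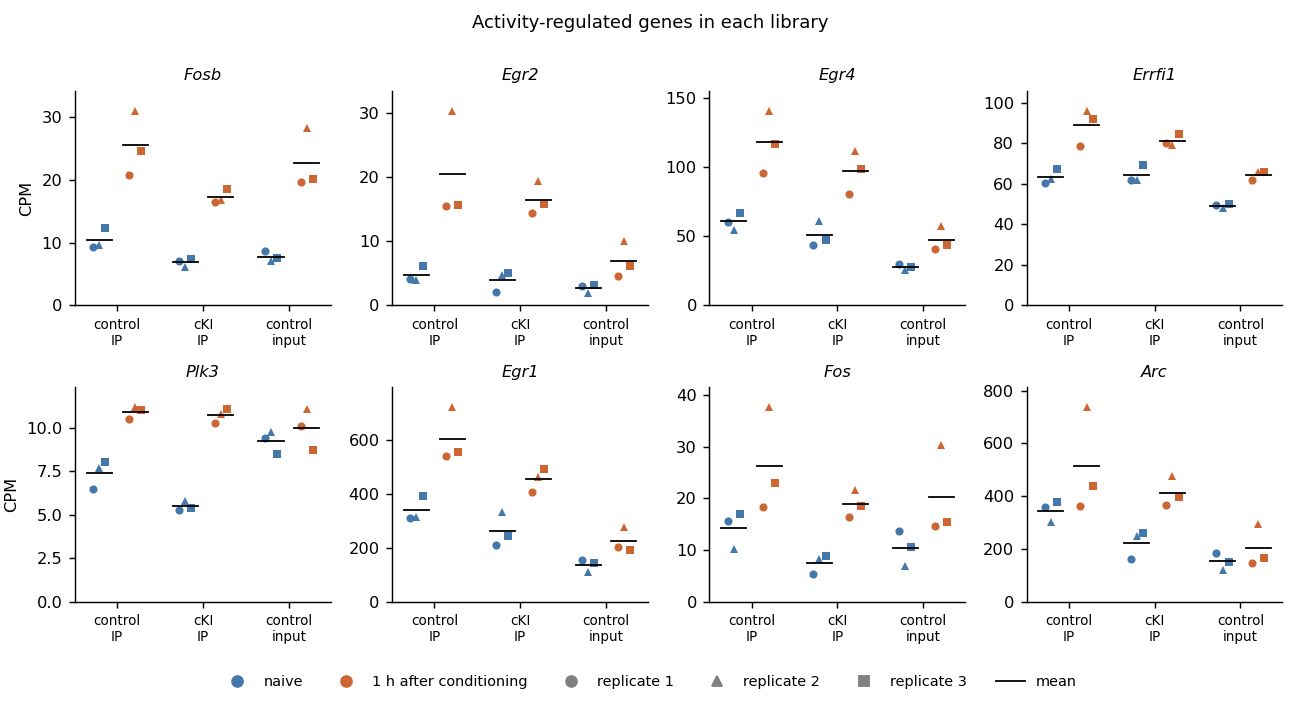
CPM (y axis, from 0) of 8 early-response genes in each library of control IPs, cKI IPs and control inputs. Points are single mice (blue naive, orange 1 h, marker shape the replicate number) and bars are means of 3. In control IPs the conditioned libraries lie above the naive ones for Fosb, Egr2, Egr4, Errfi1, Plk3, Egr1 and Fos, and overlap them for Arc.

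The mouse of replicate 2 at 1 h gave the highest of the 6 IP values for 8 of 9 Egr and Nr4a genes, 4 of 7 AP-1 genes and 17 of 29 synaptic effectors, against 16.3% of all tested genes. Its input was also the highest of the 6 control inputs for Fos, at 30.3 CPM, and for Arc, at 294 CPM. Without this library 6 genes were called higher and 3 lower, against 21 and 20 with it, and 8 of the 41 calls held. Most of the 41 calls also ended in each other omission. Of them 8 held without naive replicate 1, 10 without replicate 3 at 1 h and 11 without naive replicate 2 or 3. Without replicate 1 at 1 h 17 held, and 38 genes were called in all. How much of the early-response rise is due to differences in the response of single mice was not tested.

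The remaining AP-1 genes were Fosl2 at 0.30, Fosl1 at 0.58, Junb at 0.38, Jun at 0.38 and Jund at 0.00. None passed (edgeR adjusted p 0.378, 0.657, 0.547, 0.896 and 0.999), so that 1 of the 7 rose and 0 fell, with a median of 0.38. Jun stood at 138, 64.3 and 67.8 CPM in naive and 143, 140 and 67.6 CPM in conditioned IPs. The same 3 libraries were high for Prox1, a marker of dentate granule cells, which stood at 153, 33.0 and 36.8 and then 147, 119 and 28.8 CPM. In the inputs Jun was at 135 to 154 CPM and Prox1 at 116 to 163 CPM. The part of granule cell content in the early-response values was not tested.

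Genes that act at synapses and on signalling moved in part. Plk3, a polo-like kinase induced by activity, went from 6.47, 7.66 and 8.05 to 10.5, 11.2 and 11 CPM, with no overlap. Its log2 fold change was 0.57 (SE 0.10, edgeR adjusted p 0.0396), and 0.97 in cKI mice (edgeR adjusted p 0.00319), with -0.40 for the difference (edgeR adjusted p 0.343). The control call was lost without any 1 of the 6 libraries, at edgeR adjusted p of 0.0513 to 0.18. Plk3 was the 1 member called of 29 measured synaptic effectors, at a median of 0.23. Conditioned libraries lay above all naive ones in 11 of the 29 and below them in 1, against 10.2% and 10.1% of tested genes. The next by p were Dnajb5 at 0.51 (edgeR adjusted p 0.0611), the prostaglandin synthase gene Ptgs2 at 0.46 (0.0795) and Arl5b at 0.52 (0.0864), whereas Homer1 was at -0.02 and the receptor gene Sorcs3 at -0.36 (edgeR adjusted p 0.991 and 0.187).

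Errfi1, which encodes an inhibitor of the EGF receptor, rose from 60.2, 62.1 and 67.1 to 78.4, 96.0 and 91.7 CPM. The groups did not overlap, with a log2 fold change at 1 h of 0.49 (SE 0.08, edgeR adjusted p 0.0345). Its call held only without replicate 1 at 1 h, the other omissions giving edgeR adjusted p of 0.061 to 0.191. Among 14 measured feedback inhibitors of the ERK pathway 1 rose and 0 fell, at a median of 0.17. Dusp5, a nuclear phosphatase of ERK, went from 38.8, 44.6 and 46.4 to 59.5, 73.0 and 68.2 CPM in controls (log2 0.63, edgeR adjusted p 0.0683) and by 0.92 in cKI mice, where it passed (edgeR adjusted p 0.0334). The difference between genotypes did not pass (-0.29, edgeR adjusted p 0.627). Dusp4 was at 0.35, Dusp6 at 0.18 and Dusp1 at -0.12 (edgeR adjusted p 0.101, 0.876 and 0.909).

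Other early transcription regulators had 0 of 25 measured members called by edgeR. Of the 25, 9 with higher and 1 with lower values had an unadjusted p under 0.05, against 5.12% and 5.52% of tested genes. Bhlhe40, a clock-linked repressor, was at 0.30, the SRF gene Srf at 0.23, Nfil3 at 0.42 and the kinase gene Sik1 at 0.39 (edgeR adjusted p 0.146, 0.154, 0.174 and 0.235). Klf6 was at -0.29 (edgeR adjusted p 0.2). The late and secreted list, of genes that peak hours after activity, had a median of -0.04, and the 1 member of 16 that passed fell. That gene was Adcyap1, which encodes the neuropeptide PACAP. It went from 5.55, 5.74 and 4.41 to 2.25, 2.72 and 2.33 CPM (log2 -1.11, SE 0.19, edgeR adjusted p 0.0422), all conditioned mice lying below the naive ones. The call was lost without any 1 library, at edgeR adjusted p of 0.061 to 0.246. Bdnf, the neurotrophin gene, was at 0.29 (edgeR adjusted p 0.33).

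**Figure D3:**
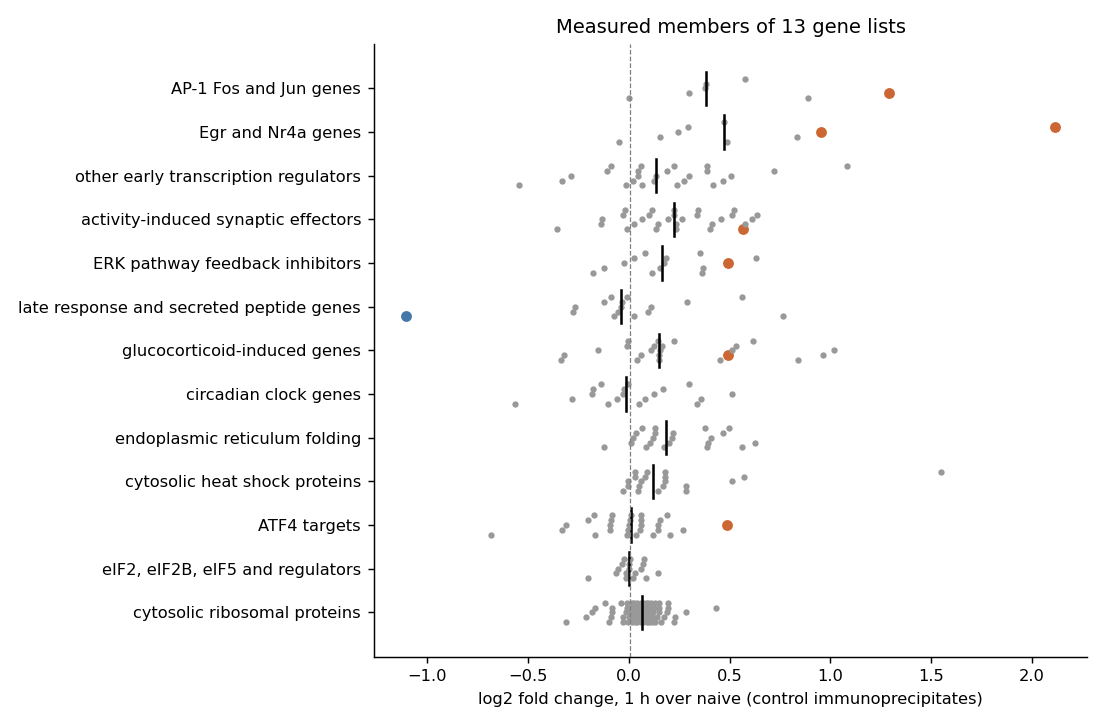
Fitted log2 fold change at 1 h over naive in control IPs (x axis) of every measured member of 13 gene lists (rows). Large orange points were called higher, the blue point (Adcyap1) lower, and grey points did not pass. Black bars are list medians, from -0.04 for late and secreted genes to 0.47 for Egr and Nr4a genes, and the dashed line is the median of all tested genes.

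Foot shock raises corticosterone, whose receptor activates a set of target genes in many cell types. Of 23 measured glucocorticoid-induced genes 1 rose (Errfi1, which is also on the ERK list) and 0 fell in control IPs, with a median of 0.15. Of the 23, 11 had conditioned libraries above all naive ones and 2 below them, against 10.2% and 10.1% of tested genes. An unadjusted p under 0.05 was reached by 10, all with higher values, against 5.12% of tested genes. Gjb6, a connexin gene that is also on the astrocyte list, stood at 2.36, 3.28 and 2.62 CPM and then 5.80, 4.75 and 4.23 CPM (log2 0.84, edgeR adjusted p 0.055). Hif3a, of the hypoxia factor family, was at 1.02 and the cell cycle inhibitor gene Cdkn1a at 0.62 (edgeR adjusted p 0.0958 and 0.139), both with the groups apart. Per1, a clock gene with both glucocorticoid and CREB sites, stood at 109, 109 and 123 CPM in naive and 142, 188 and 155 CPM in conditioned IPs (log2 0.51, SE 0.10, edgeR adjusted p 0.062). Sgk1, a kinase gene induced by steroids, showed little difference in the IPs, at 50.2, 52.7 and 53.4 and then 55.5, 59.2 and 60.1 CPM (log2 0.16, edgeR adjusted p 0.345). In the inputs of the same mice it went from 50.9, 76.1 and 49.7 to 109, 103 and 125 CPM (log2 0.93, edgeR adjusted p 0.0108). Tsc22d3, another classical target, was at -0.15 in IPs and 0.60 in inputs (edgeR adjusted p 0.588 and 0.00239). Its conditioned IPs lay below all naive ones. The difference of its IP and input changes, -0.76, did not pass (edgeR adjusted p 0.299). Of 18 clock genes 0 were called by edgeR, with 5 at an unadjusted p under 0.05 and higher, Per2 at 0.34 (edgeR adjusted p 0.0812), and 1 lower, Rorb at -0.57 (0.334). The shares of all tested genes at that unadjusted p were 5.12% higher and 5.52% lower.

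Chaperones of the endoplasmic reticulum, which fold secreted and membrane proteins, had 21 of 22 members above 0, against 51.6% of tested genes. Of the 22, 0 were called by edgeR. Conditioned libraries lay above all naive ones in 11 and below them in 0, against 10.2% and 10.1% of tested genes. An unadjusted p under 0.05 was reached by 9, all with higher values, against 5.12% of tested genes. The median of the list was 0.18. Pdia4, a disulfide isomerase gene, stood at 61.7, 57.3 and 54.8 CPM in naive and 74.3, 102 and 80.1 CPM in conditioned IPs (log2 0.56, SE 0.12, edgeR adjusted p 0.0611). Manf went from 47.9, 46.4 and 47.6 to 57.4, 75.8 and 67.3 CPM (log2 0.50, edgeR adjusted p 0.0705). Hspa5, the main chaperone, was at 0.47, Dnajc3 at 0.39 and Xbp1, a transcription factor that induces them, at 0.39 (edgeR adjusted p 0.157, 0.0713 and 0.0981). Replicate 2 at 1 h was the highest library for 17 of the 22. In cKI IPs the median of the list was 0.02. Whether the list as a whole differed by genotype was not tested, and none of its members was called for control minus cKI. In the control inputs the median of the list was 0.16, where Pdia4, Manf and Xbp1 passed at 0.51, 0.43 and 0.38 (edgeR adjusted p 0.0109, 0.0166 and 0.00388).

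Cytosolic heat shock genes had 0 of 20 measured members called by edgeR and a median of 0.12. An unadjusted p under 0.05 was reached by 4, all with higher values, against 5.12% of tested genes. Dnajb1, a cochaperone of Hsp70, stood at 66.8, 67.8 and 65.1 CPM and then 78.6, 112 and 106 CPM (log2 0.57, edgeR adjusted p 0.0539). Bag3, which acts in chaperone-linked autophagy, was at 6.44, 7.31 and 9 CPM in naive IPs and 9.44, 26.2 and 30.9 CPM at 1 h. Replicate 1 at 1 h lay just above the naive mice and replicates 2 and 3 far above them, and the log2 fold change of 1.55 had an SE of 0.37 (edgeR adjusted p 0.122).

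Genes of the eIF2α pathway, which the study's knock-in alters, showed little difference in ribosome-bound message with conditioning in control IPs. These libraries do not measure the phosphorylation of eIF2α. Of 17 genes for eIF2, eIF2B, eIF5 and their regulators edgeR called 0, and 0 had an unadjusted p under 0.05. Eif2s1, which encodes eIF2α, stood at 39.8, 40.7 and 39.5 CPM in naive and 40.1, 44.9 and 40.1 CPM in conditioned IPs (log2 0.06, SE 0.06, edgeR adjusted p 0.88). Atf4, whose translation rises when eIF2α is phosphorylated, was at 119, 139 and 143 and then 136, 158 and 148 CPM (log2 0.15, SE 0.10, edgeR adjusted p 0.699). Of 28 measured ATF4 targets 1 rose, at a list median of 0.01. It was Gpt2, a mitochondrial alanine aminotransferase, which went from 74.4, 84.1 and 88.6 to 111, 114 and 122 CPM (log2 0.49, SE 0.08, edgeR adjusted p 0.0417), without overlap. That call was lost without any 1 library, at edgeR adjusted p of 0.0537 to 0.191. Of 74 cytosolic ribosomal protein genes edgeR called 0, at a median of 0.06. At an unadjusted p under 0.05, 2 were higher and 1 lower, against 5.12% and 5.52% of tested genes.

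Among the other genes that rose, the group values were tight for Gcnt2, a glycosyltransferase of the I blood group antigen. It stood at 17.6, 18.2 and 19.6 CPM in naive and 31.1, 31.7 and 33.1 CPM in conditioned IPs (log2 0.79, SE 0.10, edgeR adjusted p 0.00658). Only the omission of naive replicate 1 lost this call (edgeR adjusted p 0.053). P4ha1, a subunit of the collagen prolyl hydroxylase, went from 60.0, 56.7 and 64.2 to 80.6, 105 and 83.5 CPM (log2 0.57, edgeR adjusted p 0.0437). Both genes also passed in the inputs of the same mice, at 0.35 for Gcnt2 and 0.39 for P4ha1 (edgeR adjusted p 0.0307 and 0.0195). St8sia6, a sialyltransferase, was at 0.66, Ddo, the enzyme that degrades D-aspartate, at 0.68, Olfml2b at 0.52, Prdm2, a zinc finger methyltransferase, at 0.52, and Actn2, an actin crosslinker of spines, at 0.49 (edgeR adjusted p 0.0129, 0.0475, 0.0345, 0.0483 and 0.0475). The calls of Ddo and Actn2 were lost without any 1 library (adjusted p by edgeR 0.0583 to 0.264 and 0.106 to 0.246), those of P4ha1, Olfml2b and Prdm2 without any but replicate 1 at 1 h (0.0729 to 0.246, 0.0793 to 0.169 and 0.0951 to 0.269), and that of St8sia6 without any but that library or naive replicate 2 (0.0625 to 0.0822).

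The smallest adjusted p of the comparison was shared by Fosb and genes outside the activity lists. Nnt, the mitochondrial transhydrogenase that is known to be partly deleted in the C57BL/6J substrain, rose from 16.0, 16.9 and 18.1 to 26.4, 38.6 and 34.8 CPM (log2 0.97, SE 0.11, edgeR adjusted p 0.00259). AC154550.1, a gene model named here after its values were seen, had nearly the same counts in each library (629 against 624 in naive replicate 1), so that the pair cannot be told apart here. The labels give the background as C57BL/6 without a substrain. Banp, a DNA-binding nuclear protein, rose from 27.2, 24.0 and 25.9 to 38.4, 41.8 and 36.9 CPM (log2 0.60, SE 0.07, edgeR adjusted p 0.00259). In the inputs of the same mice Nnt and Banp passed too, at 0.91 and 0.39 (edgeR adjusted p 7.29e-05 and 0.0258). In cKI IPs Nnt stood at 21.3, 20.7 and 21.1 CPM in naive and 24.5, 24.4 and 24.4 CPM in conditioned mice, between the levels of the naive and the conditioned controls.

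Manba, the lysosomal beta-mannosidase, fell from 4.54, 6.48 and 4.93 to 2.19, 1.99 and 1.70 CPM (log2 -1.44, SE 0.16, edgeR adjusted p 0.00259). A730081D07Rik, a long noncoding transcript, went from 1.85, 2.21 and 1.64 to 0.227, 0.117 and 0.167 CPM (log2 -3.45). It passed the level filter through the naive mice alone and so had to differ, and its call in IPs is given as a description. Zc2hc1a, a zinc finger gene, fell from 71.0, 78.9 and 80.3 to 39.1, 44.3 and 48.5 CPM (log2 -0.80, SE 0.10, edgeR adjusted p 0.00658). These 3 genes, with Nnt, AC154550.1, Banp and Fosb, are the 7 still called whichever library was left out. For A730081D07Rik, which had to differ, this adds no support, and Nnt and AC154550.1 count as 2 though they cannot be told apart. Of these, Nnt and AC154550.1 lost the call when the 6 control IPs were fitted alone (edgeR adjusted p 0.0507 for both). The 3 genes that fell passed in the inputs as well, Manba at -0.67, A730081D07Rik at -3.41 and Zc2hc1a at -0.50 (edgeR adjusted p 0.00458, 0.000193 and 0.0112).

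Of the 41 called genes, 3 passed the level filter through 1 group alone and so had to differ: A730081D07Rik and Etnppl through the naive mice and G530011O06Rik through the conditioned ones. Among all tested genes 16 and 19 did so. Etnppl, chosen after its values were seen, is an enzyme of astrocytes that degrades phosphoethanolamine. It stood at 1.32, 1.27 and 1.85 CPM and then 0.512, 0.703 and 0.5 CPM in IPs (log2 -1.35), a call lost without any 1 library (edgeR adjusted p 0.0904 to 0.113). In the inputs it went from 25.8, 24.3 and 24.5 to 11.1, 11.4 and 11.1 CPM (log2 -1.15, edgeR adjusted p 0.000193). At the edge of the filter 170 genes reached 1 CPM in exactly 3 libraries, and 189 did so in 2 and were left out.

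Several of the other genes that fell are known from neurons. Slc17a6, the vesicular glutamate transporter VGLUT2, went from 43.6, 50.8 and 41.1 to 20.3, 25.9 and 28.6 CPM (log2 -0.86, SE 0.15, edgeR adjusted p 0.0422). Tshz2, a zinc finger transcription factor, went from 65.6, 83.6 and 70.1 to 26.8, 27.9 and 30.6 CPM (log2 -1.36, SE 0.21, edgeR adjusted p 0.0345). Syt2, a calcium sensor of fast transmitter release, went from 39.3, 43.6 and 32.5 to 17.5, 22.8 and 19.3 CPM (log2 -0.96, edgeR adjusted p 0.0388). In none of the 3 did the groups overlap. In the inputs of the same mice the 3 genes were at -0.31, -0.52 and -0.08 (edgeR adjusted p 0.404, 0.794 and 0.755). The differences of their IP and input changes did not pass (edgeR adjusted p 0.735, 0.605 and 0.435). The calls of Slc17a6 and Tshz2 were lost without any 1 library (edgeR adjusted p 0.0619 to 0.246 and 0.0642 to 0.167), and that of Syt2 without any but naive replicate 3 (0.0704 to 0.191).

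In cKI IPs these genes stood near the level of conditioned controls in both training states. Slc17a6 was at 25.8, 29.1 and 27.4 CPM in naive and 27.0, 23.9 and 35.1 CPM in conditioned cKI mice. Tshz2 was at 33.5, 29.5 and 42.3 and then 34.4, 23 and 44.3 CPM, and Syt2 at 19.3, 17.5 and 19 and then 17.5, 15.9 and 24.6 CPM. The naive controls are thus the high group among the 4 groups of IPs for these genes. The changes in controls and cKI mice differed by -0.92, -1.31 and -1.01, none of which passed (edgeR adjusted p 0.263, 0.263 and 0.255). The naive cKI IPs ran in another lane than the control IPs, so for this comparison genotype and lane cannot be told apart.

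Vwc2l, a secreted protein related to BMP antagonists, stood at 16.8, 17.6 and 13.5 CPM in naive and 5.23, 7.26 and 8.23 CPM in conditioned control IPs (log2 -1.21, SE 0.19, edgeR adjusted p 0.0292), and at 6.07 to 7.68 CPM in naive cKI IPs. Its call was lost without naive replicates 1 or 2 or replicate 2 at 1 h (edgeR adjusted p 0.0883 to 0.143). In the inputs of the same mice Vwc2l was at -0.18 (edgeR adjusted p 0.682), and the difference of the IP and input changes did not pass (0.607). Rims4, of the presynaptic active zone, went from 81.3, 98.5 and 94.2 to 63.5, 60.5 and 65.6 CPM (log2 -0.53, SE 0.07, edgeR adjusted p 0.00754), a call lost only without replicate 2 at 1 h (0.0704). Cobl, an actin nucleator, was at -1.14, the BMP-binding Bmper at -1.04, the Ras exchange factor gene Rasgef1b at -0.89 and the sphingosine phosphate phosphatase gene Sgpp2 at -0.87 (edgeR adjusted p 0.0475, 0.0475, 0.0475 and 0.046). Tekt5 was at -0.79, Plxdc1 at -0.66, Cyp2s1 at -0.63 and Zfp467 at -0.50 (edgeR adjusted p 0.044, 0.0475, 0.0422 and 0.0475). For these 8 genes the call was lost without any 1 library, at edgeR adjusted p of 0.0513 to 0.261.

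**Figure D4:**
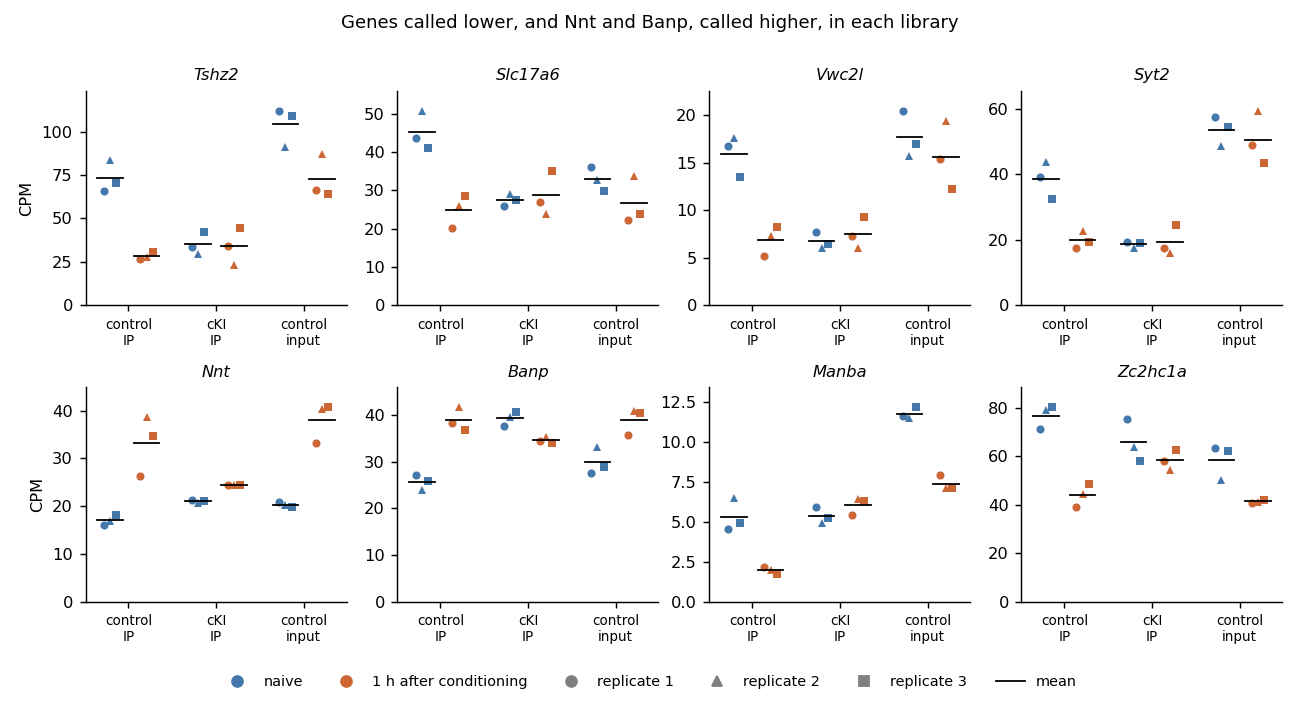
CPM (y axis, from 0) of 6 genes called lower (Tshz2, Slc17a6, Vwc2l, Syt2, Manba and Zc2hc1a) and of Nnt and Banp, called higher, in each library of control IPs, cKI IPs and control inputs. Points are single mice (blue naive, orange 1 h) and bars are means of 3. For Tshz2, Slc17a6, Vwc2l and Syt2 the naive control IPs are the high group and the cKI IPs of both training states lie near the conditioned controls. For Nnt, Banp, Manba and Zc2hc1a the step between naive and conditioned controls is also seen in the inputs.

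Inputs and IPs came from the same lysates, so the inputs are no independent mice. In them 70 genes (0.549%) were called higher and 59 (0.463%) lower at 1 h, and 9 of the 21 genes called higher in IPs and 4 of the 20 called lower also passed there. These were Fosb, Egr2, Egr4, Errfi1, Gcnt2, P4ha1, Nnt, AC154550.1 and Banp among the higher genes, and Manba, A730081D07Rik, Etnppl and Zc2hc1a among the lower ones. Inputs of naive replicates 1 and 2 ran in another lane than the other 4, and the IPs all in 1 lane. Measured in the 6 cKI mice, where IP and input libraries were compared, 14 of the 21 genes called higher were above their input level in IPs and 4 below, and of the 20 called lower 4 were above and 12 below. Of all tested genes 39.3% were above and 37.1% below.

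The test of the IP change against the input change, with the mouse as a block, called 1 gene (0.00784%), with 631 (4.95%) at an unadjusted p under 0.05. It was CTGF, the gene of a secreted matrix protein now named Ccn2. CTGF stood at 10.7, 15.4 and 9.23 CPM in naive and 4.04, 3.60 and 2.97 CPM in conditioned IPs, and at 13.3, 20.9 and 14.1 and then 19.1, 21.5 and 16.9 CPM in the inputs. The IP and input changes differed by -1.99 on the log2 scale (edgeR adjusted p 0.00278), and the IP value lay below the input value in all 6 mice, by more in each conditioned mouse than in any naive one. The IP change by itself did not pass (log2 -1.73, SE 0.52, edgeR adjusted p 0.226). Without the mouse as a block 0 genes were called, with CTGF still at -1.99 (edgeR adjusted p 0.134), and 0 with the lane of the inputs as a covariate, with CTGF at -1.83 (edgeR adjusted p 0.22).

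Whether the response differed between genotypes was tested by the difference of the 2 changes in IPs. It called 2 genes (0.0157%), with 1267 (9.93%) at an unadjusted p under 0.05. In cKI IPs alone 6 genes (0.047%) were called higher and 1 (0.00784%) lower. The 2 genes were Banp, at 37.7, 39.7 and 40.8 CPM in naive and 34.5, 35.3 and 34.0 CPM in conditioned cKI mice (control minus cKI 0.79, edgeR adjusted p 0.0291), and Manba, at 5.92, 4.92 and 5.22 and then 5.41, 6.42 and 6.30 CPM (-1.61, edgeR adjusted p 0.0449). With lane as a covariate, which differed within the cKI IPs, 0 genes were called, while the differences stayed at 0.80 for Banp and -1.45 for Manba (edgeR adjusted p 0.587 and 0.637). After leaving out 1 library at a time, both calls held only without the first replicate of the naive controls or that of the conditioned controls (adjusted p by edgeR 0.022 and 0.0402 for each gene), and each of the other 10 omissions gave 0.0513 to 0.138 for Banp and 0.0741 to 0.177 for Manba. None of the early-response genes was among the called ones.

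Cell type markers were counted beside these results. Of 15 dentate granule cell markers, edgeR called 0, at a median of 0.24, with 0 at an unadjusted p under 0.05. Their summed level was 1640 CPM in naive IP replicate 1 and at most 717 CPM in the other naive IPs, and 1550, 1400 and 674 CPM in the conditioned IPs, so that libraries of a group lay far apart, whereas the inputs held 1230 to 1400 CPM. CA1 markers summed to 1720 to 2320 and 1700 to 2130 CPM. CA2 and CA3 markers summed to 981 to 1030 CPM in naive and 1040 to 1200 CPM in conditioned IPs, groups that did not overlap. Of the 15, edgeR called 0, and the median was 0.13. An unadjusted p under 0.05 was reached by 3, all with higher values, against 5.12% of tested genes. Conditioned libraries lay above all naive ones in 5 and below them in 0, against 10.2% and 10.1% of tested genes. Inhibitory neuron markers summed to 544 to 661 and 474 to 582 CPM (0 of 17 called by edgeR, 1 lower at an unadjusted p under 0.05, against 5.52% of tested genes). Oligodendrocyte markers summed to 360 to 377 CPM in naive and 262 to 364 CPM in conditioned IPs, and in the inputs to 6390 to 7010 and 4890 to 5650 CPM, with Mbp at -0.34 there (edgeR adjusted p 0.0245) and -0.16 in IPs (0.641). Astrocyte markers summed to 663 to 765 and 663 to 729 CPM, and 0 of 5 blood cell markers reached the filter. The part of these differences in the called genes was not tested.

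**Figure D5:**
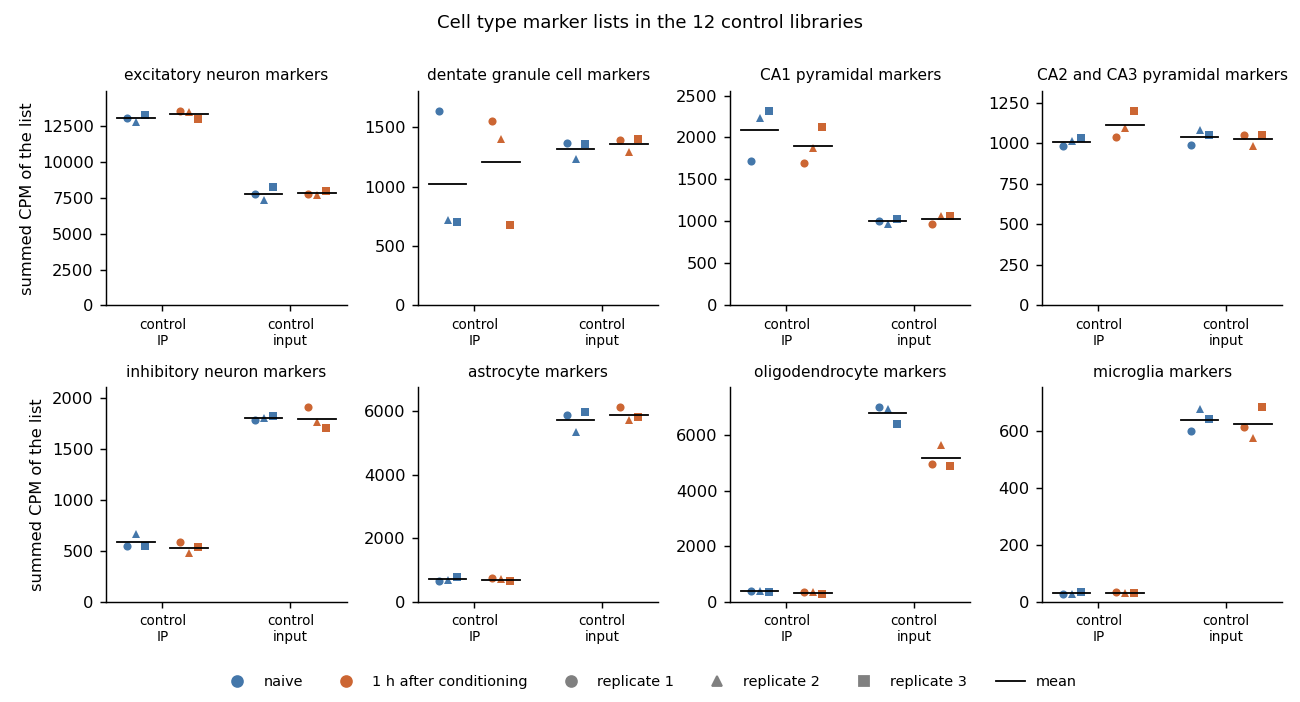
Summed CPM (y axis, from 0) of 8 marker lists in the 12 control libraries, with IPs at the left and inputs at the right of each panel. Points are single mice (blue naive, orange 1 h, marker shape the replicate number) and bars are means of 3. Granule cell markers stand at 1640 CPM in 1 naive IP and at most 717 CPM in the other naive IPs. In the conditioned IPs they stand at 1550, 1400 and 674 CPM, and among naive inputs they run from 1230 to 1370 CPM. Glial and inhibitory markers are low in all IPs.

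The count of called genes differed between fits and tools. The 12 IPs shared 1 estimate in the test above. With the 6 control IPs alone 24 genes (0.188%) were called higher and 37 (0.29%) lower, 26 of the 41 among them, and DESeq2 called 114 (0.894%) and 152 (1.19%), with all 41 among them. The 15 calls that ended with the 6 control IPs alone were those of Egr2, Egr4, Errfi1, Plk3, Nnt, AC154550.1, P4ha1, Prdm2, Ddo, Slc17a6, Rasgef1b, Zfp467, Etnppl, Evpl and Gm45606 (edgeR adjusted p 0.0507 to 0.13). With no filter on low counts the calls of Egr2, Egr4, Cobl and Tshz2 ended (edgeR adjusted p 0.0586 to 0.0955). Of all tested genes 51.6% had a fold change above 0. All 41 called genes kept their direction in every alternative. That was nearly given beforehand, because their groups lay apart and the alternatives reuse the same counts.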

How the data were processed

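RNA of 24 libraries (12 mice, 1 input and 1 RiboTag immunoprecipitate each) was sequenced from poly(A) directional libraries, per the labels' protocols. The authors deposited 1 table of raw read counts per gene. Bowtie, cutadapt and DESeq2 are listed, without roles, per the submitters' processing notes. For the counting tool, the build and the use of strand the sources used here give nothing, so genes that overlap, lie antisense or have close copies may share reads. From these counts, CPM for the level filter and for the summed marker lists was computed on raw library totals. The CPM of single genes was computed over the tested genes with TMM scaling, apart for IPs and inputs. IP and input levels of a gene are thus on separate scales. Replicates are separate mice by their mouse numbers. Tests used edgeR 4.0.16 (R 4.3.3, limma 3.58.1): a robust quasi-likelihood fit on the 12 IP libraries with TMM scaling, 1 mean per group, and Benjamini-Hochberg adjustment at 0.05 over all genes with at least 1 CPM in 3 or more of the 6 control IPs. The IP and input changes were compared over the 12 control libraries with the mouse as a block. DESeq2 1.42.0 was an alternative, and others were a fit on the 6 control IPs, other filters, blocks, lanes and omissions of single libraries.

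Symbols matched the RefSeq tables for 47597 of 51733 genes (92.0%), 26 symbols had been turned into dates in the table, and 0 columns were left out. The fit was tested on simulated data: of the genes of control IPs changed by a log2 of 0.5, 57.6% were called, by 1, 83.6%, and by 2, 98.5%, with 9 calls among unchanged genes. The simulation changed 66, 67 and 67 genes at these sizes, more than the 41 called here, which eases the adjusted threshold. It drew each gene independently, without differences shared by many genes of a library, such as those in granule cell markers. These shares may thus be too high for the real data. Named were the 15 largest called changes in each direction (mean log2 CPM of at least 2, groups apart, no clone-type name), up to 6 members per list by p, a fixed set of genes and the leading genes of the other contrasts. Other called genes and list members, such as Nr4a1, Nr4a2, Jund, Homer1, Dusp1, Dusp6, Sgk1 and Hspa5, were named after their values were seen. The members and lists were chosen with earlier results of these data known.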

Additional observations from a re-analysis of the deposited data

Results flagged for a closer look

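For 3 results an effect differed between groups under the same contrast by a test of the difference itself. The change of Banp in control IPs exceeded that in cKI IPs by 0.79 on the log2 scale (edgeR adjusted p 0.0291). The change of Manba was lower in controls by a difference of -1.61 (edgeR adjusted p 0.0449). The calls of Banp and Manba ended with lane as a covariate (edgeR adjusted p 0.587 and 0.637). They also ended with the replicate number as a block (edgeR adjusted p 0.062 for both) and in most omissions of a library. The change of CTGF in control IPs and in the inputs of the same mice differed by -1.99 (edgeR adjusted p 0.00278). That call ended without the mouse block and with the input lane as a covariate (edgeR adjusted p 0.134 and 0.22).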

How the results depend on the processing

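All 41 called genes kept their direction in every alternative, which was nearly given beforehand because their groups lay apart. Of them 7 were called in every omission of a library and 5 in every alternative. Both counts include A730081D07Rik, which passed the level filter through the naive mice alone and so had to differ. The 7 also count Nnt and AC154550.1, which cannot be told apart. Against 21 genes higher and 20 lower, DESeq2 called 114 and 152, the test with no filter on low counts called 41 and 57, and the 6 control IPs alone 24 and 37. Omitting 1 library gave 4 to 26 genes higher and 3 to 12 lower. Against 2 genes for control minus cKI, DESeq2 called 85, the test with no filter 6, the fit with lane as a covariate 0 and omissions 0 to 5. Against 1 gene for IP minus input, DESeq2 called 24, the test with no filter 22, the fits without the mouse block or with the input lane 0, and omissions 1 to 2. Where an omission left 2 libraries in a group, the spread was shared with the other groups. The causes of these shifts were not tested.

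The replicate numbers of naive and conditioned control IPs showed no pairing, with correlations of the deviations of same-numbered libraries of 0.265, -0.354 and 0.303, and not every library correlated best with its own number. With the replicate number as a block, fitted on the 6 control IPs, 39 genes were higher and 56 lower, 26 of the 41 among them, and 0 genes differed between control and cKI mice. With the replicate block in place of the mouse, 1 gene differed between IP and input. One count was worth 0.023 to 0.0327 CPM in control IPs, so depth limits only the lowest genes.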

Other observations

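Receptors, channels and calcium enzymes of synapses showed no called gene in control IPs. Of all tested genes, 5.12% were higher and 5.52% lower at an unadjusted p under 0.05 by edgeR. Of 22 glutamate receptor genes edgeR called 0, with 1 higher and 3 lower at an unadjusted p under 0.05, and the median was -0.03. The smallest p belonged to Grik1, a kainate receptor subunit, at -0.85 (edgeR adjusted p 0.137), and Grm4, a presynaptic metabotropic receptor, was at -0.34 (0.238). Of 12 GABA-A receptor subunits edgeR called 0, with 1 higher and 2 lower at an unadjusted p under 0.05, and the median was -0.03. Voltage-gated potassium channels had 0 of 21 called by edgeR, 0 higher and 3 lower at an unadjusted p under 0.05, with Kcnf1 at -0.25 (edgeR adjusted p 0.295). Of 20 calcium kinases and phosphatases edgeR called 0, with 2 lower at an unadjusted p under 0.05, and Rcan2, a calcineurin regulator, was at -0.73 (edgeR adjusted p 0.191).

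Metabolic lists showed no called gene either. The shares of all tested genes at an unadjusted p under 0.05 by edgeR were again 5.12% higher and 5.52% lower. Cholesterol synthesis had 0 of 20 genes called by edgeR, 2 higher and 1 lower at an unadjusted p under 0.05, at a median of -0.05, and Mvd, a decarboxylase of the mevalonate pathway, was at 0.31 (edgeR adjusted p 0.15). Of 20 cytosolic aminoacyl-tRNA synthetases edgeR called 0, with 1 lower at an unadjusted p under 0.05, Cars at -0.19 (edgeR adjusted p 0.364), and 7 of the 20 were above 0. For the 8 measured genes of the mitochondrial genome edgeR called 0, 0 had an unadjusted p under 0.05, and the median was 0.00.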
